A study of Mus musculus with 6 samples.

Results

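The data described here concern 10 of the 54446 genes listed in each library: anillin (Anln) and the cytokinesis genes Ect2, Racgap1, Kif23, Kif20a, Kif20b, Prc1, Aurkb, Cit and Cep55, taken by symbol. They were chosen with their values in these libraries known, so their levels in the 2 cultures are a description and carry no test. The study measured single-cell gene expression in 6 droplet libraries of mouse glioma. GL261, an established mouse glioma line labelled as glioblastoma cells from brain, was sequenced in 2 libraries, grown in a medium for differentiation that holds fetal calf serum. GL261-GSCs, cultures derived from that line and labelled as glioblastoma stem cells, were sequenced in 4 libraries, grown in a defined medium for such cells. All cells and spheres were dissociated with Accutase and put in a lysis buffer with a non-ionic detergent, and the labels name cells or nuclei as the material captured for 10x Genomics 5′ libraries. Medium and derivation differ together between the groups and cannot be told apart. The labels do not say whether libraries of a group came from separate cultures, so p-values measure the spread between these libraries, which may be technical.

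Cytokinesis is the physical division of the cell at the end of mitosis. Aurora B kinase (Aurkb) and the microtubule bundler Prc1 set up the spindle midzone, where the kinesin Kif23 and the GTPase-activating protein Racgap1 form the centralspindlin complex that recruits the exchange factor Ect2. Ect2 carries the signal to the cortex, anillin ties actin, myosin II and septins together in the contractile ring, and citron kinase (Cit) and Cep55 act at the midbody where the daughter cells part. Transcripts of most of these genes build up in G2 and mitosis. Anillin is also known outside division, as a partner of septins in the myelin of oligodendrocytes.

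In the mouse genome (GRCm38) Anln (ENSMUSG00000036777.8) lies on chr9:22332012-22389188, on the minus strand. Other protein-coding genes of the group lie at chr3:27097222-27153878 (Ect2), chr15:99620496-99651656 (Racgap1), chr9:61915905-61946774 (Kif23), chr7:80294450-80316259 (Prc1), chr11:69045647-69051664 (Aurkb) and chr5:115845278-116008947 (Cit). Because all members moved together within the cycle, as given further on, the 250 bases before the transcription start were searched on both strands for the letters TTTGAA, the core of the cell cycle genes homology region (CHR), and CCAAT, the box read by NF-Y. No 2 matches of these letters overlapped. RefSeq promoter windows (GRCm38.p6) were used for 8 members, in 11 windows. Aurkb and Kif20a were left out of the search. TTTGAA was found in windows of 3 of the 8 members (Ect2, Prc1, Cep55), beside 18.26% of the 27025 genes in the table. CCAAT was found in windows of 4 of the 8 (Ect2, Prc1, Kif23, Racgap1), beside 37.49% of those genes. The Anln window held neither set of letters, and neither did those of Kif20b and Cit. The Cit window, chr5:115845406-115845655, lies inside the gene as placed above and so belongs to a start within it. A match is a description of the letters and not a site. The window of Anln is shown beside those of 3 partners that hold one or both sets of letters, with the matches in capitals. They lie at chr9:22389207-22389456 (minus strand), chr3:27153879-27154128 (minus strand), chr15:99651657-99651906 (minus strand) and chr7:80294201-80294450 (plus strand).
Anln: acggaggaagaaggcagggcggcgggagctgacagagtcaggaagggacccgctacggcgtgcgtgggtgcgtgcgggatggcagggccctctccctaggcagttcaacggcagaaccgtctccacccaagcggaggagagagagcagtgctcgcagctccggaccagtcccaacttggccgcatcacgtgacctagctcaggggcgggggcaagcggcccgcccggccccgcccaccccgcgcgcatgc
Ect2: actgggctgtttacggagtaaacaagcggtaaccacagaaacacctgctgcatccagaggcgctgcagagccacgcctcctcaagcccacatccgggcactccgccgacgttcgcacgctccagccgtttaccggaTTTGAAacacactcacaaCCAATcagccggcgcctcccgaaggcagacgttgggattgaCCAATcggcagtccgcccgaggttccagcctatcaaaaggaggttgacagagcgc
Racgap1: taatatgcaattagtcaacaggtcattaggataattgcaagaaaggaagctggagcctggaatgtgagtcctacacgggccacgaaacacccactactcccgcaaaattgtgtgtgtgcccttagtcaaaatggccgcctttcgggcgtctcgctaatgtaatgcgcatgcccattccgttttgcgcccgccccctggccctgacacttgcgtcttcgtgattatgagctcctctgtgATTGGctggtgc
Prc1: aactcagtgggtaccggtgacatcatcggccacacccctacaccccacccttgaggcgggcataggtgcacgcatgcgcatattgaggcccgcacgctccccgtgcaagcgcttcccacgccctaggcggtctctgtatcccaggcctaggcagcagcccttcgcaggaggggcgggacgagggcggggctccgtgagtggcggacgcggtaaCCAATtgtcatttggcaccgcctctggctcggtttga
The capitals in Ect2 mark TTTGAA 114 bases before the start and CCAAT 96 and 55 bases before it. In Racgap1 and Prc1 they mark CCAAT 12 and 37 bases before the start. Ect2, Prc1 and Cep55 each have 2 windows, for different starts. The TTTGAA counted for Prc1 is in its other window, 30 bases before that start, and the other Ect2 window holds 3 CCAAT.

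The libraries held 80899005 to 121309232 UMIs, counts of single captured molecules, and 4264 to 7275 called cells. The median cell held 15478 and 13652 UMIs (GL261) or 15375, 11890, 10638 and 6670 UMIs (GL261-GSCs, replicates 1 to 4), so GL261-GSCs replicate 4 was the shallowest. Called barcodes shared between libraries numbered 32 to 59 a pair, where 26.1 to 57.9 would be shared by chance. The stem markers Sox2 and Nes were read in every library, Sox2 at 66.8 and 67.5 CPM in GL261 and at 81.7 to 141 CPM in GL261-GSCs, and Nes at 1183 and 1265 CPM in GL261 and at 312 to 563 CPM in GL261-GSCs. Olig2 was at 401 to 787 CPM in GL261-GSCs and at 0.918 and 0.0166 CPM in GL261. Levels are given as CPM, a gene's part of the UMIs summed over the cells of a library, scaled by the trimmed mean of M values (TMM). Of markers of other cell types, the 4 of microglia and macrophages summed to 12.9 to 13.0 CPM in GL261, nearly all Csf1r, and to 0.192 to 0.349 CPM in GL261-GSCs, with Ptprc at 0 to 2 UMIs in every library. The 4 endothelial and pericyte markers summed to 0.412 to 1.63 CPM over all libraries. The 3 neuronal markers summed to 0.0148 and 0.0331 CPM in GL261 and to 1.15 to 78.2 CPM in GL261-GSCs, nearly all Syt1, with Rbfox3 at 0 in every library. The part of these markers in the results was not tested.

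The shares of cells marked as dividing overlapped between the cultures. To compare cells of unequal depth, each was thinned to 2000 UMIs, and a cell was called Mki67-positive if it kept at least 1 UMI of the proliferation marker Mki67. Mki67-positive cells made up 34.3% and 39.7% of GL261 and 31.1%, 32.7%, 37.6% and 31.2% of the GL261-GSCs libraries. Cells called G2/M-high, with at least 10 thinned UMIs of 25 G2/M genes that are not members, made up 20.5% and 27.1% of GL261 and 23.8%, 27.3%, 28.5% and 21.7% of GL261-GSCs. In either class the libraries of the groups overlapped. That G2/M limit cuts a continuous count, with 85 to 241 cells a library at 9 UMIs and 96 to 250 at 10. None of the 25 G2/M genes passed an adjusted p of 0.05 between the cultures in the fit over all cells (edgeR quasi-likelihood test), 4 had an unadjusted p under 0.05 and DESeq2 called 4, and their log2 fold changes had a median of -0.01. In Mki67-positive cells 4 of the 25 were called, 2 higher and 2 lower, beside 31.4% of all genes called in either direction.

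Anln was the member with the largest difference between the cultures. Over all called cells it was at 379 and 429 CPM in replicates 1 and 2 of GL261, while replicates 1 to 4 of GL261-GSCs held 91.8, 86.3, 96.3 and 82.2 CPM. Both GL261 libraries lay far above all 4 GL261-GSCs libraries, which lay close together. The group means were 404 ± 35.6 (SD, n = 2) and 89.2 ± 6.15 (SD, n = 4) CPM, and the fitted log2 fold change of GL261-GSCs over GL261 was -2.18 (SE 0.12), a level 4.53-fold lower. In a sum over cells, fewer dividing cells and less RNA per cell cannot be told apart, so the same values were read in Mki67-positive cells alone. There Anln was at 567 and 592 CPM in GL261 and at 142, 124, 162 and 174 CPM in GL261-GSCs. The groups again did not overlap, and the fitted log2 fold change was -1.95 (SE 0.16), 3.85-fold lower.

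Anln took a larger share of the members' UMIs in GL261. Among thinned UMIs of the 10 genes over all cells, it made up 31.3% and 32.5% in GL261 and 12.5% to 13.9% in GL261-GSCs. In Mki67-positive cells its share was 30.4% and 32.1% in GL261 and 12.8% to 14.3% in GL261-GSCs. The other 9 members, summed over all cells, were at 736 and 833 CPM of the thinned cells in GL261 and at 588 to 668 in GL261-GSCs. For each 100 UMIs of the G2/M list, GL261 cells held 12.2 ± 0.0878 (SD, n = 2) UMIs of Anln and GL261-GSCs cells 3.03 ± 0.192 (SD, n = 4).

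Anln was then read in classes of cells, some of which lay at or below the level of free RNA given further on. Levels by class are in thinned CPM, taken from the thinned cells with no further scaling. In G2/M-high cells Anln was at 685 and 707 in GL261 and at 190, 172, 248 and 269 in GL261-GSCs, a ratio of means of 3.17. In S-high cells, with at least 10 thinned UMIs of 31 S-phase genes and under 5 of the G2/M list, it was at 297 and 288 in GL261 and at 56.5, 58.4, 68.1 and 62.1 in GL261-GSCs, a ratio of 4.76. In Mki67-negative cells it was at 234 and 283 in GL261 and at 43.8 to 68.1 in GL261-GSCs, a ratio of 4.41. In none of these classes did the groups overlap. In GL261 the order of levels was Mki67-negative, S-high, Mki67-positive and G2/M-high, with no overlap of neighbours over the 2 libraries. In GL261-GSCs the same order held for the means, but Mki67-negative and S-high cells overlapped over the libraries, and so did Mki67-positive and G2/M-high cells. A last class, chosen after the data were seen, held the cells with no thinned UMI of Mki67 or of the G2/M list and under 5 of the S list. There Anln was at 91.4 and 80.2 in GL261 (108 and 65 UMIs) and at 11.3 to 17.4 in GL261-GSCs (5 to 25 UMIs).

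Levels were set beside those of free RNA. Barcodes with at least 100 and under 1000 UMIs, which hold RNA from outside cells, carried Anln at 270 and 206 CPM in GL261 and at 61.5 to 81.6 in GL261-GSCs, a ratio of means of 3.49. Thinned Anln levels in G2/M-high and Mki67-positive cells lay above the free RNA of their own library in all 6 libraries. Anln in S-high cells lay above it in GL261 and from 56.5 to 68.1 in GL261-GSCs, below it in 3 of the 4 libraries. Mki67-negative cells lay below it in GL261 replicate 1 (234) and in GL261-GSCs replicates 3 and 4 (55.2 and 43.8). Levels in cells with no cycle UMIs lay below it in every library. The share of cells with an Anln UMI after thinning was 71.6% and 72.3% of G2/M-high cells in GL261 and 26.7% to 38.4% in GL261-GSCs (without thinning 98.4% and 98.3%, and 76.9% to 87.9%). Over all cells it was 45.2% ± 3.97 (SD, n = 2) and 15.6% ± 1.07 (SD, n = 4) after thinning, and 84.1% and 46.9% without it. A droplet with 2000 UMIs of free RNA alone would show Anln with a chance of 41.7% and 33.7% in GL261 and of 11.6% to 15.1% in GL261-GSCs. The shares of 13.8% to 16.1% in GL261 and 2.20% to 3.34% in GL261-GSCs among cells with no cycle UMIs are below those values. Those values hold for free RNA alone, and what part of the shares in cells is background was not tested.

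The other members had a background too. Free RNA carried Prc1 at 344 and 336 CPM in GL261 and at 193, 214, 235 and 175.5 CPM in GL261-GSCs, where the thinned cells held 239 and 292, and 172, 177, 194 and 177 over all cells. It carried Kif20a at 111 and 125 CPM in GL261, where the thinned cells held 86.3 and 100, and at 37.7 to 60.5 in GL261-GSCs. Over all cells Prc1, Kif20a, Racgap1, Ect2, Aurkb and Cep55 all lay below the free RNA of both GL261 libraries, and what part of their levels over all cells is background was not tested. Free RNA held Kif23 at 53.3 and 56.6 and at 33.6 to 40.9. Free RNA carried Cit at 10.8 and 10.7 CPM in GL261 and at 13.6 to 21.5 in GL261-GSCs. In G2/M-high and in Mki67-positive cells all 10 members lay above the free RNA of their library in 6 of 6 libraries. In S-high cells Prc1, Kif23, Kif20a, Racgap1, Ect2 and Aurkb lay below it in every library, and Cep55 in every library but GL261-GSCs replicate 4. What part of these levels is background was not tested. In Mki67-negative cells Prc1, Kif20a, Racgap1, Ect2, Aurkb and Cep55 lay below free RNA in every library. Kif23 did so in every library but GL261-GSCs replicate 1.

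**Figure D1:**
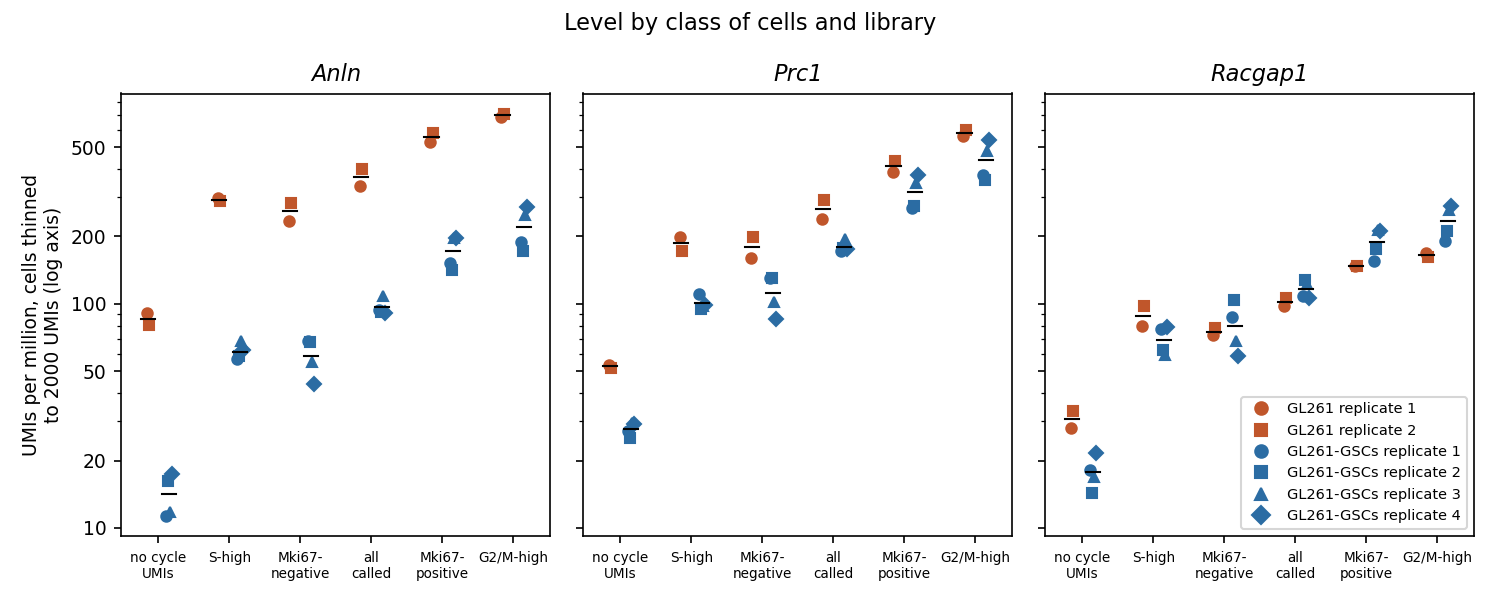
Thinned CPM (log axis) of Anln, Prc1 and Racgap1 in 6 classes of cells, with 1 point per library and a black line at each group mean. Anln of GL261 lies above all GL261-GSCs libraries in every class, from 91.4 and 80.2 in cells with no cycle UMIs to 685 and 707 in G2/M-high cells, while Racgap1 of GL261-GSCs lies above GL261 in G2/M-high cells.

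The members that build the midzone and carry the furrow signal differed less. Over all cells Prc1 was at 264 and 327 CPM in GL261 and at 170, 180, 193 and 165 CPM in GL261-GSCs, a log2 fold change of -0.74 (SE 0.14). The groups did not overlap, and replicate 2 was the higher of the GL261 libraries. Kif20a, the kinesin that brings the chromosomal passenger complex to the midzone, was at 89.9 and 105 CPM in GL261 and at 54.8, 44.7, 55.0 and 38.0 CPM in GL261-GSCs (log2 fold change -1.02, SE 0.18). Aurkb was at 69.2 and 80.7 CPM in GL261 and at 60.8, 55.4, 56.2 and 41.8 CPM in GL261-GSCs (log2 fold change -0.48, SE 0.17). For Kif20a and Aurkb too the libraries of the groups were apart, for Aurkb by a narrow gap.

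Centralspindlin and its partner did not form one pattern. Kif23 was at 70.4 and 86.0 CPM in GL261 and at 48.0, 53.9, 60.7 and 53.6 CPM in GL261-GSCs (log2 fold change -0.53, SE 0.14). Its complex partner Racgap1 was at 103 and 118 CPM in GL261 and at 113, 132, 121 and 97.5 CPM in GL261-GSCs (log2 fold change 0.07, SE 0.15). The Kif23 libraries were apart and the Racgap1 libraries overlapped, and the Racgap1 log2 fold change ranged from -0.03 to 0.17 with 1 library left out. Ect2, which centralspindlin recruits, was at 79.4 and 93.4 CPM in GL261 and at 44.7, 64.7, 66.9 and 55.8 CPM in GL261-GSCs (log2 fold change -0.57, SE 0.19). GL261-GSCs replicate 1 was the lowest library for both Kif23 and Ect2.

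Of the midbody genes, Cep55, which recruits the abscission machinery, was at 31.7 and 40.5 CPM in GL261 and at 15.6, 20.8, 16.6 and 15.2 CPM in GL261-GSCs (log2 fold change -1.08, SE 0.18). Cit was at 31.8 and 34.5 CPM in GL261 and at 47.9, 35.5, 35.7 and 29.4 CPM in GL261-GSCs (log2 fold change 0.16, SE 0.20). Kif20b, a kinesin of late cytokinesis, was at 46.7 and 46.5 CPM in GL261 and at 49.6, 50.5, 56.8 and 45.4 CPM in GL261-GSCs (log2 fold change 0.12, SE 0.13). The Cep55 groups were apart, while those of Cit and Kif20b overlapped, with replicate 1 the highest GL261-GSCs library for Cit.

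**Figure D2:**
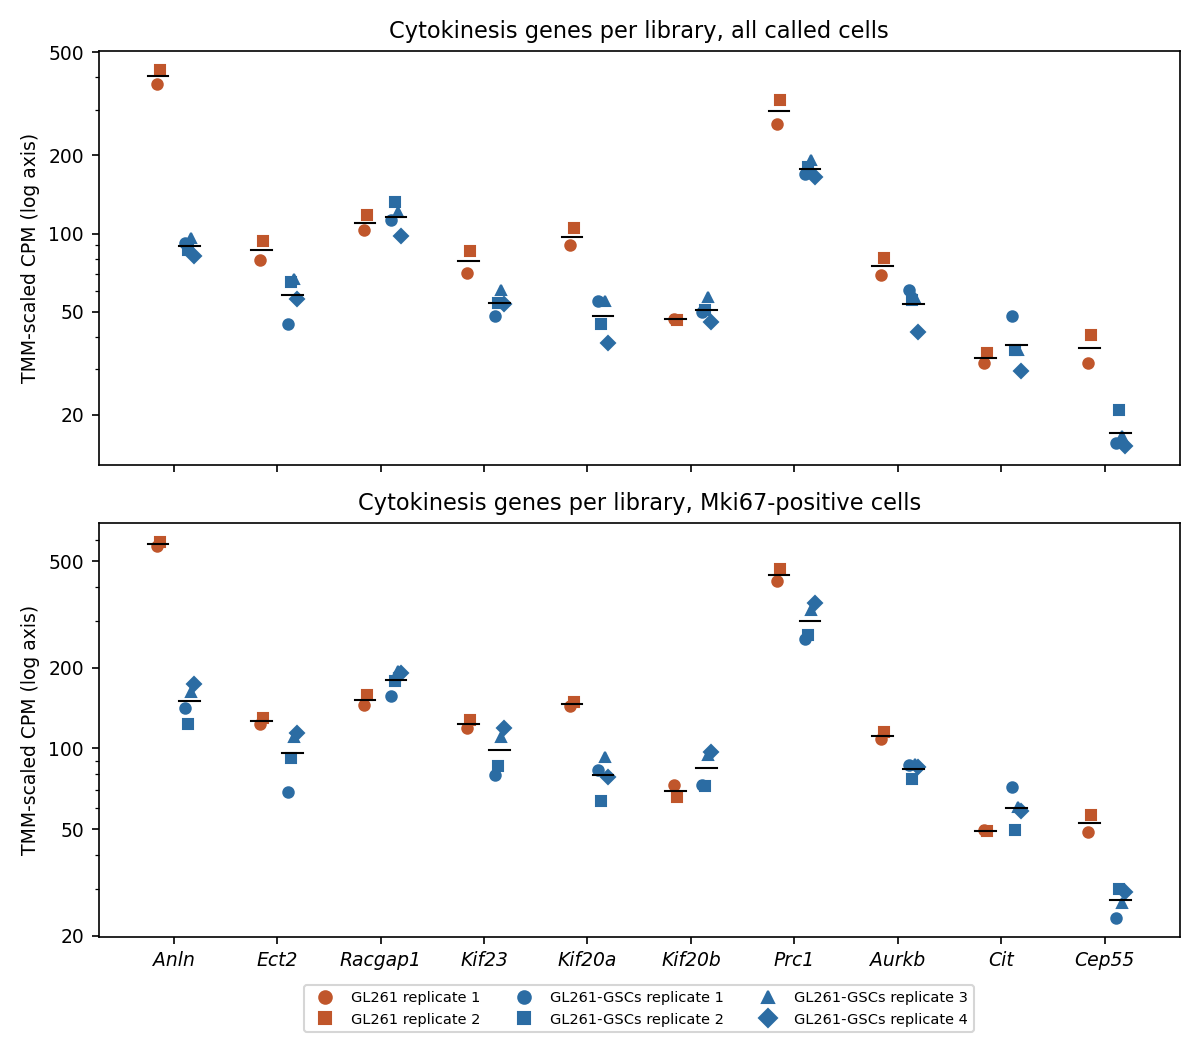
TMM-scaled CPM (log axis) of the 10 genes in each library, over all called cells (top) and Mki67-positive cells (bottom), with a black line at each group mean. Over all cells the groups do not overlap for 7 genes (as for 56.7% of all genes), among them Anln at 379 and 429 against 82.2 to 96.3 CPM, and overlap for Racgap1, Kif20b and Cit.

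Over all cells the CPM of the 2 cultures did not overlap for 7 of the 10 members, all higher in GL261. Of all 18439 genes tested, 56.7% did not overlap, 28.7% with GL261-GSCs higher and 28% with GL261-GSCs lower. At an adjusted p under 0.05, 5 of 10 were called lower in GL261-GSCs (Anln, Cep55, Kif20a, Kif23, Prc1), none higher. Of those genes, 29.9% were called in either direction, 15.8% higher and 14.1% lower. In Mki67-positive cells 5 of 10 were called lower (Anln, Aurkb, Cep55, Kif20a, Prc1) and none higher, beside 31.4% called in either direction, 16.6% higher and 14.7% lower, of 15728 genes. Since the members were chosen on these contrasts, nothing is read from those counts. The scale matters for the members near 0: in thinned CPM over all cells, Racgap1, Kif20b and Cit were higher in every GL261-GSCs library than in GL261, 6 members were higher in GL261 and Aurkb overlapped. On that scale 54.8% of 14116 genes did not overlap, 35.6% with GL261-GSCs higher and 19.2% with GL261-GSCs lower. The median log2 fold change of the 10 was -0.55 over all cells and -0.40 in Mki67-positive cells, beside medians of 0.04 and 0.05 over all genes tested. The calls leaned on single libraries: without GL261 replicate 2 only Anln was called in either fit, and without GL261 replicate 1, 4 members were called over all cells and 2 in Mki67-positive cells. The count in Mki67-positive cells was 3 without GL261-GSCs replicate 2, without replicate 3, with no filter on low counts and with a limit of 3 Mki67 UMIs. Scaling by library size alone moved the median of all genes to 0.18 and 0.20 and called 4 and 3 members. It moved the split of calls over all genes from 2920 higher and 2594 lower to 3491 and 2034 over all cells, and from 2618 and 2314 to 3301 and 1776 in Mki67-positive cells. DESeq2 called 7 and 5 members.

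**Figure D3:**
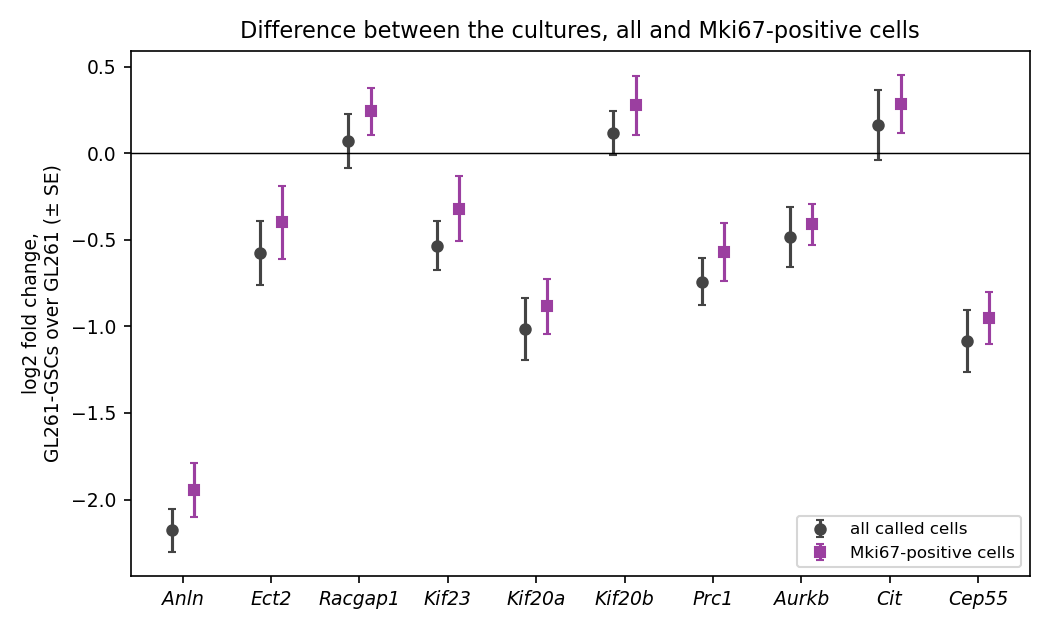
Fitted log2 fold change of GL261-GSCs over GL261 for the 10 genes, over all called cells (circles) and Mki67-positive cells (squares), with bars of 1 SE. Anln lies at -2.18 and -1.95, Cep55 and Kif20a lie near -1, and Racgap1, Kif20b and Cit lie at or above 0.

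Restricting the comparison to Mki67-positive cells moved the 10 log2 fold changes upward. In Mki67-positive cells they were -0.95 (SE 0.15) for Cep55, -0.88 (SE 0.16) for Kif20a, -0.57 (SE 0.17) for Prc1, -0.41 (SE 0.12) for Aurkb and -0.40 (SE 0.21) for Ect2. Kif23 was at -0.32 (SE 0.19), and Racgap1, Kif20b and Cit at 0.24 (SE 0.14), 0.28 (SE 0.17) and 0.29 (SE 0.17). Each lay above its value over all cells, and the fits share their libraries. Mki67-positive cells were not matched for phase between the cultures. Of them 40.6% and 45.3% were G2/M-high in GL261, and 43.6%, 46.6%, 53.9% and 51.7% in GL261-GSCs. The part of phase in the upward shift was not tested. For Prc1 the Mki67-positive cells held 422 and 466 CPM in GL261 and 256, 264, 327 and 350 CPM in GL261-GSCs. For Kif20a they held 145 and 149 CPM in GL261 and 83.1, 63.8, 92.6 and 78.3 CPM in GL261-GSCs. The groups stayed apart for both. Kif23, at 119 and 128 CPM in GL261 and at 79.6, 86.4, 110 and 120 CPM in GL261-GSCs, overlapped here. Cit, at 49.5 and 49.0 CPM in GL261 and 72.1, 49.5, 60.5 and 58.4 CPM in GL261-GSCs, was apart with GL261-GSCs higher, by less than the printed digits show for replicate 2.

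In G2/M-high cells, the groups did not overlap for 5 members in thinned CPM: Anln, Kif20a, Prc1 and Cep55 were higher in GL261 and Racgap1 was higher in GL261-GSCs. Of 11246 genes in these cells 50.4% did not overlap, 31.7% with GL261-GSCs higher and 18.7% with GL261-GSCs lower, so 5 of 10 is no more than the share over all genes. Racgap1 was at 168 and 161 in GL261 and at 191, 212, 263 and 273 in GL261-GSCs. Kif23 was at 181 and 166 in GL261 and at 116, 126, 162 and 199 in GL261-GSCs, and Ect2 was at 161 and 150 in GL261 and at 95.8, 127, 147 and 179 in GL261-GSCs. For Kif23 and Ect2 the spread within GL261-GSCs was as large as the gap between the cultures. Except for Aurkb and Cep55, each member was higher in both replicates 3 and 4 of GL261-GSCs than in replicates 1 and 2. The G2/M list itself was at 8598 and 8779 thinned CPM in G2/M-high cells of replicates 3 and 4 and at 7157 and 7382 in replicates 1 and 2, and its part in these differences was not tested.

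Cells were then ranked by their own G2/M count, which no member enters. From cells with no UMI of the G2/M list to cells with 20 or more per 2000, Anln went from 105 to 887 and from 107 to 949 CPM in the GL261 libraries. In GL261-GSCs it went from 21.2 to 217, from 26.8 to 266, from 14.7 to 379 and from 17.7 to 394. At no step did the cultures overlap for Anln. Prc1 went from 58.8 and 64.1 to 770 and 848 in GL261 and from 32.9 to 39.1 up to 523 to 839 in GL261-GSCs, where only replicate 4 reached the range of GL261. Cit went from 4.79 and 10.5 to 100 and 80.4 in GL261 and from 3.05 to 15.9 up to 82.6 to 128 in GL261-GSCs, with the cultures overlapping at both ends.

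**Figure D4:**
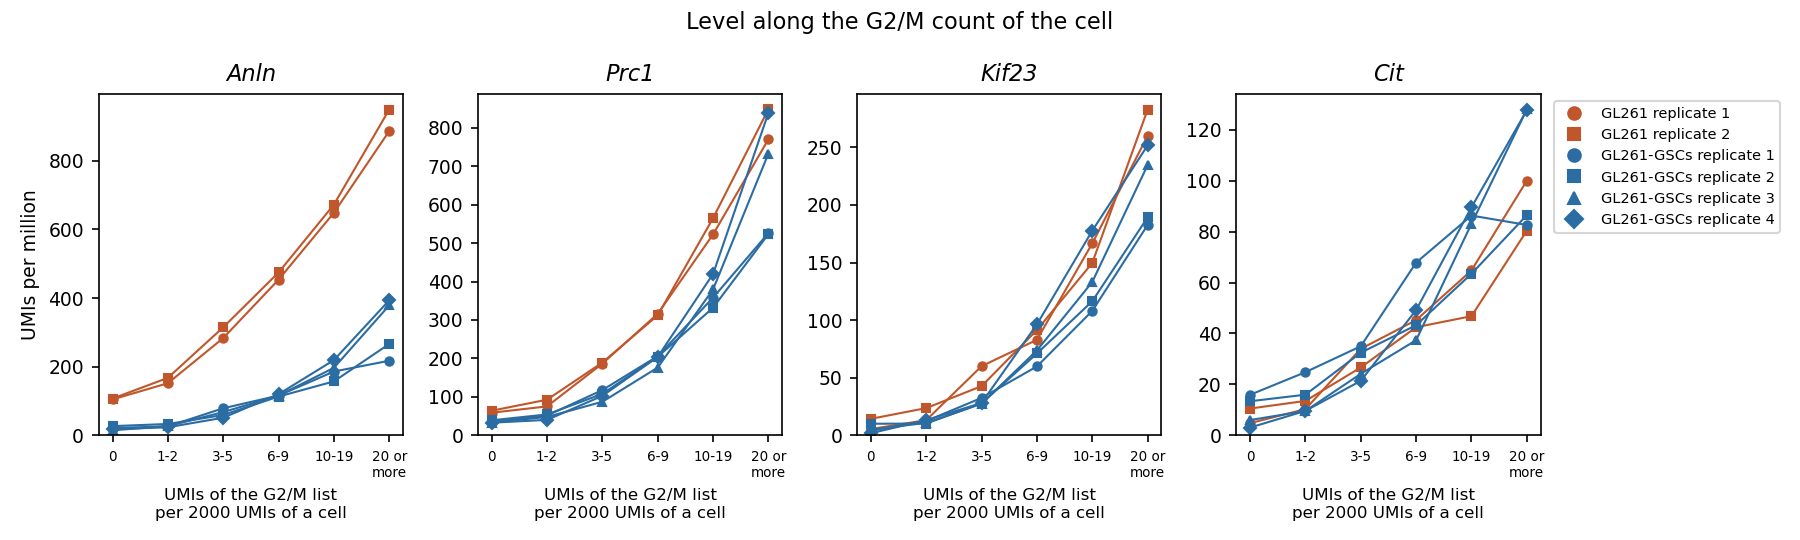
CPM of Anln, Prc1, Kif23 and Cit in cells sorted by their thinned UMIs of the G2/M list, with 1 line per library. All lines end higher than they start, and of these 4 genes only those of Anln stay apart by culture at every step, ending at 887 and 949 in GL261 and at 217 to 394 in GL261-GSCs.

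Within libraries, all 10 members were higher in Mki67-positive than in Mki67-negative cells. The members are genes of cell division, and their levels over all cells and in Mki67-positive cells were known when they were chosen. The rise is thus a description, and its p-values are no independent evidence. The test compared thinned UMIs summed over each class with the library as a block (edgeR quasi-likelihood test, Benjamini-Hochberg over 12138 genes). Of all genes 39.8% were called, 17.9% higher in Mki67-positive cells, and the members' median log2 fold change was 1.29 beside -0.02 over all genes. Kif23 differed by 1.64 (SE 0.09, adjusted p = 8.61e-12), higher in 6 of 6 libraries by 2.47-fold to 4.70-fold. Anln had 1.29 (SE 0.09, adjusted p = 1.75e-10), with ratios of 2.26 and 2.04 in GL261 and of 2.23, 2.10, 3.55 and 4.48 in GL261-GSCs. Racgap1 differed by 1.09 (SE 0.09, adjusted p = 5.24e-09). The other 7 lay between 1.13 and 1.38, each higher in 6 of 6 libraries. Many Mki67-negative levels lay below free RNA as given above, among them those of Anln in GL261-GSCs replicates 3 and 4. The size and the order of the folds, and the size of their median, are therefore not read. Without the library block the calls of Anln (adjusted p = 0.645), Kif20a (0.128) and Cep55 (0.0948) were lost, and library size scaling moved the split over all genes from 2175 higher and 2651 lower to 3215 and 1707.

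Between phases of the cycle the members moved together as well. All 10 were higher in G2/M-high than in S-high cells (same test and block). Of 9844 genes 12.5% were called, 6.43% higher and 6.12% lower. The classes are cut on G2/M genes, and transcripts of most members are known to build up in G2 and mitosis. This rise, too, is a description, and its p-values are no independent evidence. The members' median log2 fold change was 1.69, beside -0.01 over all genes. For Prc1, Kif23, Kif20a, Racgap1, Ect2 and Aurkb the S-high level lay below free RNA in every library. For Cep55 it did so in all but GL261-GSCs replicate 4. The size and the order of these folds are not read, nor is the size of the median, which includes them. Kif23 rose by 2.65 (SE 0.13, adjusted p = 1.43e-23), in 6 of 6 libraries. Kif20a rose by 2.01 (SE 0.12, adjusted p = 1.60e-20), Prc1 by 1.94 (SE 0.08, adjusted p = 8.18e-28) and Cep55 by 1.90 (SE 0.19, adjusted p = 1.29e-11), each in 6 of 6 libraries. Anln rose by 1.54 (SE 0.08, adjusted p = 1.43e-22), with ratios of 2.31 and 2.46 in GL261 and of 3.36, 2.94, 3.64 and 4.33 in GL261-GSCs. The Anln level in S-high cells lay below free RNA in 3 of the 4 GL261-GSCs libraries, so these ratios are not compared between the cultures. Aurkb rose by 1.27 (SE 0.11, adjusted p = 5.08e-14). Without the library block the call of Anln was lost (adjusted p = 0.429) and the other 9 were kept.

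The levels of Anln were compared with those of other genes over the 12 sums of Mki67-positive and Mki67-negative cells, by Pearson r of log2(CPM + 1) over 9195 genes at a mean of at least 10 CPM. The sums come in pairs from the same libraries and fall into 2 cultures, so r is given as a description. Nptn (r = 0.954), Kctd9 (0.949), Soat1 (0.949), Gabpb2 (0.949) and Mapre1 (0.947) were most like Anln. Of the members, Kif20a (0.910), Cep55 (0.892) and Prc1 (0.849) were nearest to Anln, and Kif20b (0.416) and Cit (0.462) the farthest. Over the 6 sums of Mki67-positive cells Rock2 was most like Anln (r = 0.999), followed by Sra1, Ppp1r18, Ctsz and Plscr3. Over those sums Kif20a (0.906), Cep55 (0.863) and Prc1 (0.844) were again the nearest members. For Cit (-0.778), Racgap1 (-0.582) and Kif20b (-0.561) r was negative there. The other members had as nearest gene Trim59 (Ect2), Bub1b (Racgap1), Sgo2a (Kif23), Spdl1 (Kif20a), Cenpf (Kif20b), Cdc25c (Prc1), Cdca2 (Aurkb), Espl1 (Cit) and Diaph3 (Cep55), with r from 0.974 to 0.991.

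The other genes of cytokinesis, 46 in 5 lists by role, were tested between the cultures. Over all cells 45 passed the filter on low counts, and 22 passed the test (8 higher, 14 lower with GL261-GSCs), beside 29.9% of all genes. In Mki67-positive cells 27 of 45 were called, 9 higher and 18 lower, beside 31.4%. Their median log2 fold change was -0.15 over all cells and -0.12 in Mki67-positive cells. Without GL261 replicate 1 the counts were 12 and 11, and without GL261 replicate 2 they were 10 and 12. Values below are from the fit over all cells unless Mki67-positive cells are named, and adjusted p-values are from the edgeR quasi-likelihood test.

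Of the 6 chromosomal passenger and midzone genes (Incenp, Birc5, Cdca8, Plk1, Kif4, Kif14), none was called over all cells by edgeR or DESeq2, 0 had an unadjusted p under 0.05, and log2 fold changes ran from -0.51 to 0.15. Birc5, the passenger subunit survivin, was at 298 and 361 CPM in GL261 and at 255, 285, 237 and 148 CPM in GL261-GSCs. Plk1, a mitotic kinase, was at 108 and 136 CPM in GL261 and at 93.4, 104, 101 and 74.5 CPM in GL261-GSCs. For both the libraries were apart, with GL261 higher. In Mki67-positive cells Birc5 was lower by this test (log2 fold change -0.55, SE 0.16, adjusted p = 0.0384). All 6 were called higher in Mki67-positive than in Mki67-negative cells, beside 17.9% of all genes, with log2 fold changes of 0.70 to 1.91. All 6 were also called higher in G2/M-high than in S-high cells, beside 6.43%, by 1.33 to 3.19. They are genes of division as well, so both rises are a description. Their free RNA levels were not read, and neither are the sizes of these folds.

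Among the genes that fell most was Rock2, a kinase that drives myosin, at 720 and 848 CPM in GL261 and at 176, 157, 203 and 203 CPM in GL261-GSCs. It fell by 2.08 in log2 (adjusted p = 0.000269, SE 0.15). Diaph1, a formin that builds actin filaments, was at 65.5 and 64.9 CPM in GL261 and at 23.0, 17.9, 25.8 and 20.2 CPM in GL261-GSCs, and fell by 1.59 in log2 (SE 0.16, adjusted p = 0.000839). For both the groups were far apart.

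The myosin and actin genes of the ring changed in both directions. Of 7 that passed the filter over all cells 5 fell and 1 rose, beside 14.1% and 15.8% of all genes, with a list median of -1.13. In Mki67-positive cells 6 fell and 1 rose, beside 14.7% and 16.6%. Myl9, a regulatory light chain of myosin II, was at 43.3 and 43.5 CPM in GL261 and at 0.561, 1.09, 1.70 and 2.77 CPM in GL261-GSCs, and fell by 4.85 (SE 0.53, adjusted p = 0.00107). Myh9, the heavy chain of myosin IIA, was at 1182 and 1332 CPM in GL261 and at 263, 279, 300.3 and 256 CPM in GL261-GSCs, and fell by 2.19 (SE 0.13, adjusted p = 0.000120). For both genes every GL261-GSCs library lay far under both GL261 libraries. Myl12a, another light chain, fell by 1.44 in Mki67-positive cells (SE 0.21, adjusted p = 0.00276) and by 1.31 over all cells. The actin regulators Pfn1 and Cfl1 fell by 1.13 (adjusted p = 0.0149) and 0.66 (SE 0.17).

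Among the non-muscle myosin heavy chains the change was not in one direction. Myh14, the heavy chain of myosin IIC, was at 2.19 and 1.74 CPM in GL261 and at 12.6, 11.8, 21.2 and 34.9 CPM in GL261-GSCs, and rose by 3.35 (SE 0.55, adjusted p = 0.00517). The call was lost without GL261 replicate 2 (adjusted p = 0.0628) and kept in Mki67-positive cells, where the rise was 3.67 (adjusted p = 0.00208). Myh10 had 3 to 10 UMIs in each library and did not pass the filter.

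Of 10 septins, filament-forming partners of anillin, 5 rose over all cells and none fell, beside 15.8% and 14.1% of all genes. The list median was 0.65. In Mki67-positive cells 6 rose, beside 16.6% of all genes, among them Sept2 at an adjusted p of only 0.04999. Sept3 was at 0.415 and 0.232 CPM in GL261 (42 UMIs in sum) and at 6.90, 3.84, 8.84 and 8.79 CPM in GL261-GSCs, and rose by 4.44 (SE 0.52, adjusted p = 0.00135). Sept4, known from myelin, was at 0.415 and 0.232 CPM in GL261 (likewise 42) and at 4.76, 2.46, 3.98 and 2.64 CPM in GL261-GSCs, and rose by 3.41 (SE 0.46, adjusted p = 0.00246). Both rest on few UMIs there, and the Sept4 call was lost in Mki67-positive cells without GL261 replicate 1 (adjusted p = 0.0533).

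Sept5, Sept6 and Sept2 rose by less. Sept5 was at 3.78 and 4.42 CPM in GL261 and at 6.82, 9.83, 10.7 and 18.1 CPM in GL261-GSCs (log2 fold change 1.47, SE 0.40, adjusted p = 0.0335). Sept6 was at 8.13 and 9.03 CPM in GL261 and at 13.3, 15.6, 15.4 and 18.4 CPM in GL261-GSCs (log2 fold change 0.87, SE 0.18, adjusted p = 0.0139). Sept2 was at 6.56 and 7.82 CPM in GL261 and at 11.4, 11.9, 12.6 and 20.1 CPM in GL261-GSCs (log2 fold change 0.96, SE 0.28, adjusted p = 0.0437), and is uncertain, since its symbol is listed under a second identifier. The groups did not overlap for any of the 3, but their calls were lost without either GL261 library, with adjusted p from 0.101 to 0.252. The Sept5 call was also lost without GL261-GSCs replicate 3 (0.0668) and the Sept2 call without GL261-GSCs replicate 2 (0.0524) or 3 (0.0735). Sept7, at 304 and 317 CPM in GL261 and 425, 467, 368 and 411 CPM in GL261-GSCs, did not pass the test (log2 fold change 0.43, adjusted p = 0.0598). Sept9, at 188 and 193 CPM in GL261 and 169, 145, 101 and 99.2 CPM in GL261-GSCs, did not pass it either (log2 fold change -0.57, adjusted p = 0.117). Sept11, at 173 and 207 CPM in GL261 and 160, 137, 126 and 123 CPM in GL261-GSCs, had a log2 fold change of -0.48 (adjusted p = 0.0554). Sept9 and Sept11 were thus apart with GL261 higher, as Anln was. Sept7 was apart with GL261-GSCs higher. So was Sept10, at 40.1 to 46.4 CPM in GL261 and 53.2 to 63.7 CPM in GL261-GSCs. Of all genes 56.7% were apart in one direction or the other. The septins called over all cells were at 20.1 CPM or less in every library. Within the cycle no septin was called higher in Mki67-positive or in G2/M-high cells, beside 17.9% and 6.43% of all genes. In Mki67-positive cells 3 of 10 were called lower, beside 21.8% of all genes. In G2/M-high cells 1 of 8 was called lower, beside 6.12%. Counts this small are not read as a trait of septins.

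The abscission genes were mixed. Of 14 genes of the ESCRT machinery, which cuts the bridge between daughter cells, 4 fell and 2 rose over all cells, with a list median of -0.13. Of all genes 14.1% fell and 15.8% rose, so the 2 rises are near that share. In Mki67-positive cells 6 fell and 2 rose, beside 14.7% and 16.6% of all genes. Chmp4c, the subunit that times abscission, was at 1.51 and 1.86 CPM in GL261 and at 0.349, 0.704, 0.725 and 0.549 CPM in GL261-GSCs, and fell by 1.52 (SE 0.34, adjusted p = 0.0168). It rests on 214 UMIs from GL261 and 152 from GL261-GSCs, and its call was lost without GL261 replicate 1 (adjusted p = 0.0800) or 2 (0.139). Chmp1b was at 29.0 and 29.5 CPM in GL261 and at 13.1, 9.92, 12.8 and 11.1 CPM in GL261-GSCs, and fell by 1.32 (SE 0.16, adjusted p = 0.00148). Pdcd6ip, the adaptor ALIX, fell by 0.92 and Tsg101 by 0.79 (adjusted p = 0.00149 and 0.00317), both of which Cep55 recruits to the midbody. Spast, which severs the remaining microtubules, and the ATPase Vps4b rose by 0.73 and 0.53 (adjusted p = 0.0107 and 0.0135). No abscission gene was called between G2/M-high and S-high cells (edgeR quasi-likelihood test), with 0 of 13 at an unadjusted p under 0.05 and 0 called by DESeq2. Between Mki67-positive and Mki67-negative cells 8 of 13 were called lower and 0 higher, beside 21.8% and 17.9% of all genes. Log2 fold changes of the list ran from -0.30 to 0.12 there.

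**Figure D5:**
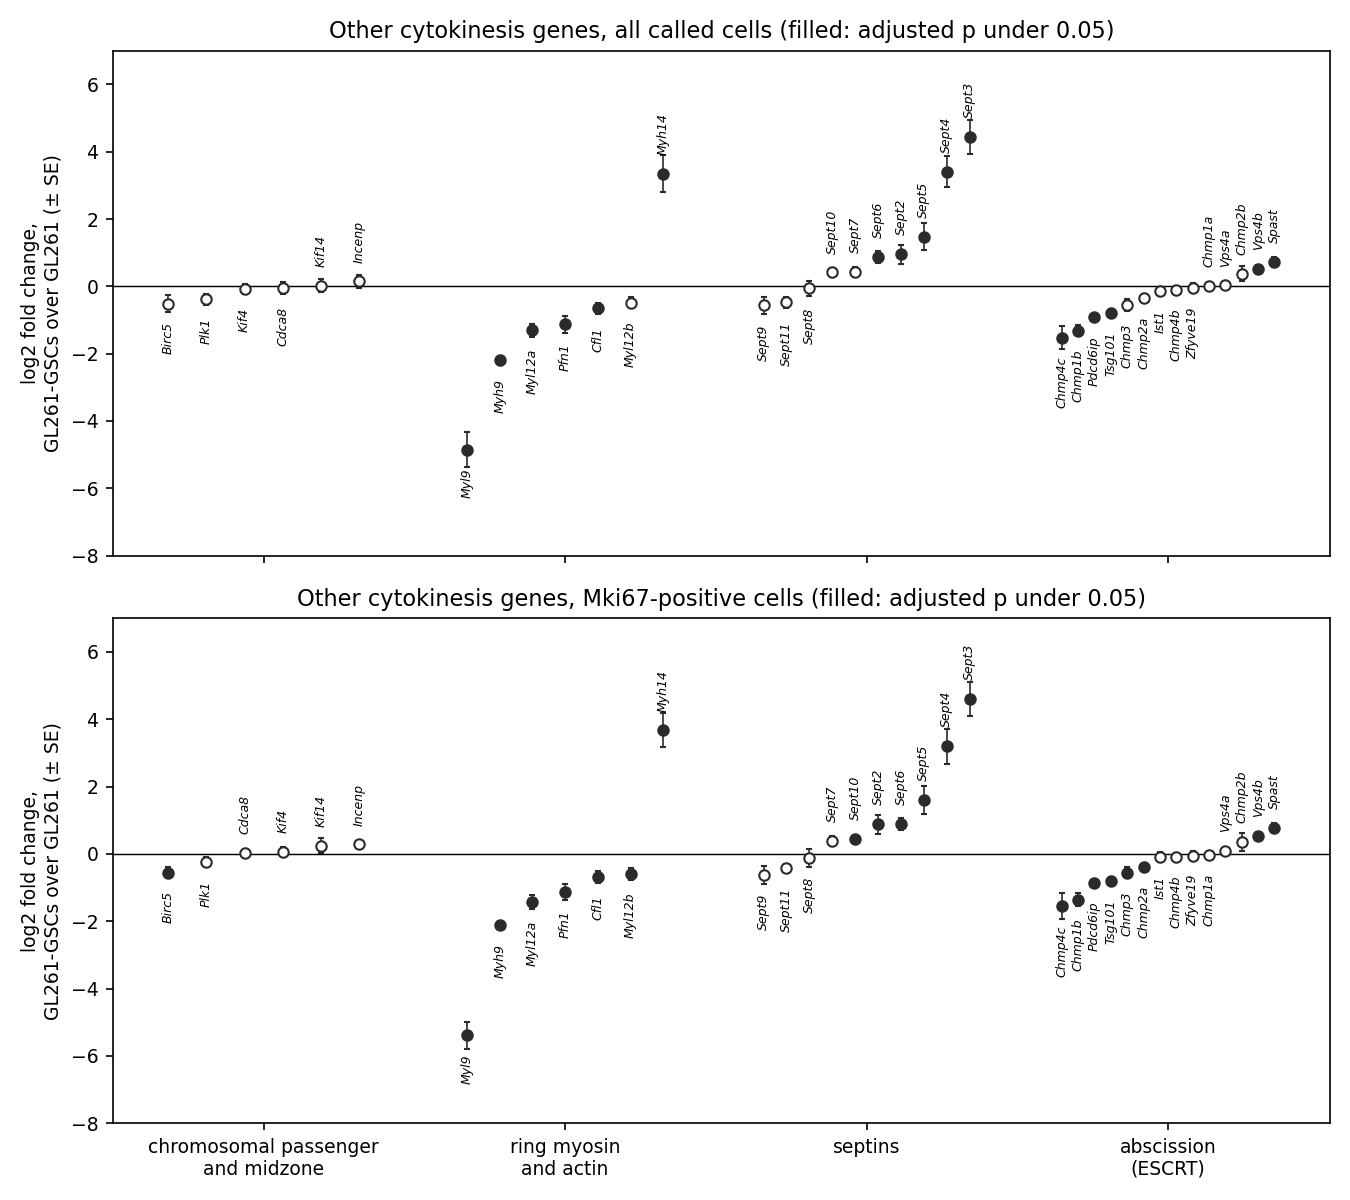
Fitted log2 fold change of GL261-GSCs over GL261 with bars of 1 SE for 4 lists of other cytokinesis genes by role, over all called cells (top) and Mki67-positive cells (bottom), with filled points at an adjusted p under 0.05. Filled points of septins lie above 0 and the midzone genes lie from -0.51 to 0.15 over all cells, with Myl9 the lowest at -4.85 and Sept3 the highest at 4.44 over all cells.

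Because anillin also serves in myelin, 8 myelin genes were read as well. Summed over all cells they were at 206 and 301 CPM in GL261 and at 433 to 481 CPM in GL261-GSCs, but the genes did not share one direction. Of the 8, 5 rose, 1 fell and 2 did not pass the test, where 15.8% of all genes rose and 14.1% fell. Mbp, the myelin basic protein gene, was at 142 and 237 CPM in GL261 and at 70.6, 42.3, 34.5 and 50.7 CPM in GL261-GSCs, and fell by 1.94 in log2 (SE 0.31, adjusted p = 0.00480).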

How the data were processed

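The deposited files hold raw UMI counts per gene and barcode, unfiltered, made with Cell Ranger (version 4, per the file headers) on the build mm10 per the submitters' processing notes. The sources used here do not name the annotation release. Of 54446 identifiers, 54409 matched GENCODE M21 (GRCm38) without their version, from which coordinates were taken. Barcodes were called cells at 10% or more of the 99th percentile of the 3000 largest barcodes, at least 500 genes and under 10% mitochondrial UMIs. Doublets were not removed.

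UMIs were summed per library and class and tested in edgeR 4.0.16 (R 4.3.3) by the quasi-likelihood test, with TMM, filterByExpr and Benjamini-Hochberg adjustment over all genes, 2-sided, and tested on simulated data beforehand. DESeq2 1.42.0, other scalings, filters, cell classes and omission of each library were alternatives. The SE is the absolute log2 fold change over the square root of F. Tables were handled in Python 3.11.15.

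The members and lists were chosen with earlier results of these data known. Beside the members, the text names 6 other cytokinesis genes that rose most and 6 that fell most, with an adjusted p under 0.05 and at least 20 UMIs in the higher group. Genes named beyond that rule complete the counts of short lists and were chosen after their values were seen. The results of 1 of the 5 lists of other cytokinesis genes are not reported here beyond the summed counts and the genes named by that rule. Replicate numbers were not taken as pairs in the main fits. Deviations of same-numbered libraries from their group means correlated at -0.00712 and 0.0705. With 2 GL261 libraries these deviations mirror each other, so the check cannot exclude pairing.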

Additional observations from a re-analysis of the deposited data

Results flagged for a closer look

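Of 50 checks for a single library far from the others, made on the members in 5 classes of cells over the 4 GL261-GSCs libraries, 1 was met, where chance gives about 1 in 20, or 2.5. Ect2 in S-high cells of GL261-GSCs replicate 1 was at 16.5 thinned CPM, from 12 UMIs in 363 cells. The other 3 libraries of the group were at 37.4, 41.6 and 39.5. All 4 lay below the free RNA of their library, which was at 47.0 CPM for Ect2 in replicate 1. What part of these levels is background was not tested. The same library was also the lowest for Ect2 over all cells, at 44.7 CPM against 55.8 to 66.9 CPM.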

How the results depend on the processing

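Among the genes of the lists called in a comparison, 40 over all cells, 52 in Mki67-positive cells, 86 between Mki67 classes and 79 between cycle classes, 0 changed sign under the settings tried. Leaving out 1 library gave 1817 to 6193 genes called between the cultures over all cells (5514 with all libraries), 1671 to 5641 in Mki67-positive cells (4932), 3645 to 4740 between Mki67-positive and Mki67-negative cells (4826) and 839 to 1159 between G2/M-high and S-high cells (1235). For the other cytokinesis genes it gave 10 to 25 over all cells (22) and 11 to 29 in Mki67-positive cells (27). Between the cultures the lowest counts came without a GL261 library, which leaves 1 sample in that group, assumed to vary like the others, and between cell classes they came without GL261-GSCs replicate 3. DESeq2 called 3196 genes between Mki67 classes and 594 between cycle classes. Without the library block these were 123 and 230, and class limits of 5 and 15 UMIs gave 2137 and 512. Adding the replicate block called 6512 genes over all cells and 5812 in Mki67-positive cells, and 6 and 7 members. The causes were not tested. Depth limits the rarest genes: Sept3, Sept4 and Chmp4c rest on few UMIs.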
